A study of Saccharomyces cerevisiae with 36 samples.

Results

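YPS128, a natural isolate of the budding yeast Saccharomyces cerevisiae, was compared with 5 other natural isolates during growth in YPD, a rich laboratory medium with glucose. The comparison used 12 libraries of ribosome-depleted total RNA, 2 of YPS128 and 2 each of NCYC361, K11, NCYC3290, Y7568 and UWO.S05.22-7. Per the labels all 6 strains are wild, the 2 replicates of a strain are biological and came from different days, and the cultures were in log phase after 3 generations at an optical density near 0.5. YPS128, Y7568 and UWO.S05.22-7 are labelled resistant to SynH, a synthetic plant hydrolysate with toxins, NCYC3290 of medium resistance, and K11 and NCYC361 sensitive. No treatment or introduced allele is recorded for any of these groups. The same strains were also grown in SynH and in SynH without its toxins (SynH -HTs), which makes 36 libraries in all, and those 24 libraries are used here only to ask whether a difference seen in YPD was also there in another medium. Of 6717 features in the table, the 5942 whose mean over the 12 YPD libraries reached 1 RPKM were compared. RPKM is reads scaled by gene length and by library size. YOL079W lay just inside that limit at 1.0003 RPKM and RRT15 just outside at 0.9960.

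Yeast given ample glucose ferments it and holds back the genes for respiration and for other carbon sources, through the repressor Mig1 and related regulators. The HAP complex, which binds CCAAT, activates the genes of the respiratory chain when respiration is released. Fast growth goes with high expression of ribosomal protein genes, while slow growth, starvation and stress call up a set of protective and storage genes through Msn2 and Msn4, factors that bind AGGGG. Natural isolates also differ in the genes they carry near chromosome ends and in the introns of their mitochondrial genome.

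Recovered reads in genes were 7304645 and 3966075 in the YPS128 libraries and 2578219 to 6032981 in the other 10. The median difference of all genes between YPS128 and the mean of the 5 other strain means was -0.35 on the log2 scale, so differences below are given relative to it (relative difference, log2) unless a level is stated. The p-values and calls on the deposited scale test the difference from 0 before this median is taken off. NCYC361 stood apart in YPD. Its libraries had a median log2 RPKM of 4.80 and 4.82 against 3.72 to 4.29 in the other 10, and against the other 5 strains it had 1504 genes higher and 469 lower with strains as the unit, where each of the other strains had at most 3 and 1. After scaling to a common median, YPS128 lay at a root mean square log2 difference of 0.739 from NCYC3290, 0.742 from Y7568, 0.748 from UWO.S05.22-7, 1.10 from K11 and 1.62 from NCYC361. Results are therefore given with and without NCYC361.

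A single gene, RSN1, passed when the 5 strain means were the measure of spread. RSN1 (YMR266W, on chromosome XIII) encodes a membrane protein whose overexpression relieves the salt sensitivity of mutants in SRO7, an exocytosis gene. Its level was 0.806 and 0.493 RPKM in the YPS128 libraries, from 22 and 7 reads. In the other 10 libraries it ran from 24.0 to 93.7 RPKM with a median of 62.2, from 492 to 2112 reads. The groups did not come near each other. Whether YPS128 carries the gene and reads it little, or lacks it or holds another sequence there, was not tested, and the same holds for the mitochondrial intron frames below. The relative difference was -6.16. For the difference of -6.51 before the all-gene median was taken off, the adjusted p was 0.0147 in limma with strains as the unit. That fit called 0 of 5942 features higher, a share of 0%, and 1 lower, a share of 0.0168%. At an unadjusted p under 0.05 it had 12 higher and 34 lower, and with voom on the recovered reads 0 passed in either direction. RSN1 was also low in the other media. It had 5 and 3 reads in YPS128 in SynH -HTs, against 231 to 1129 in the other strains, and 1 and 30 reads in SynH, against 70 to 673. The 30 reads come from the deepest library, with 32828574 reads in genes. In SynH RSN1 was at 0.203 and 0.241 RPKM in YPS128 against 7.14 to 40.7. Its adjusted p with strains as the unit was lost without NCYC361, without NCYC3290 and without Y7568, and also without replicate 1 of UWO.S05.22-7 and without replicate 1 of every strain. A permutation of 1 strain against 5 cannot give a p below 0.167.

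With the libraries as the unit, which measures only the spread between the 2 replicates of a strain, 487 features were higher in YPS128 (8.2%) and 2369 lower (39.9%) at an adjusted p under 0.05 in limma. The split turned with the scaling, to 1516 higher and 761 lower after scaling to a common median. The genes described below are therefore those called in the same direction in 5 library fits, namely the deposited scale, median scaling, quantile normalization, and the deposited and median-scaled values without NCYC361. There were 218 such genes higher (3.67%) and 335 lower (5.64%), of which 23 overlap another gene and 18 have a near-identical copy. Both YPS128 libraries lay outside the range of the other 10 for 132 features on the high side (2.22%) and 596 on the low side (10%), on the deposited scale. The YPS128 libraries had the lowest median log2 RPKM on that scale, 3.90 and 3.72 against 3.94 or more. Levels and overlaps below are not corrected for this offset, which matters for narrow gaps on the low side. Adjusted p-values below come from the library fit on the deposited scale, and errors of a difference are its standard errors. These p-values test the difference before the all-gene median is taken off, and not the relative difference printed beside them.

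**Figure D1:**
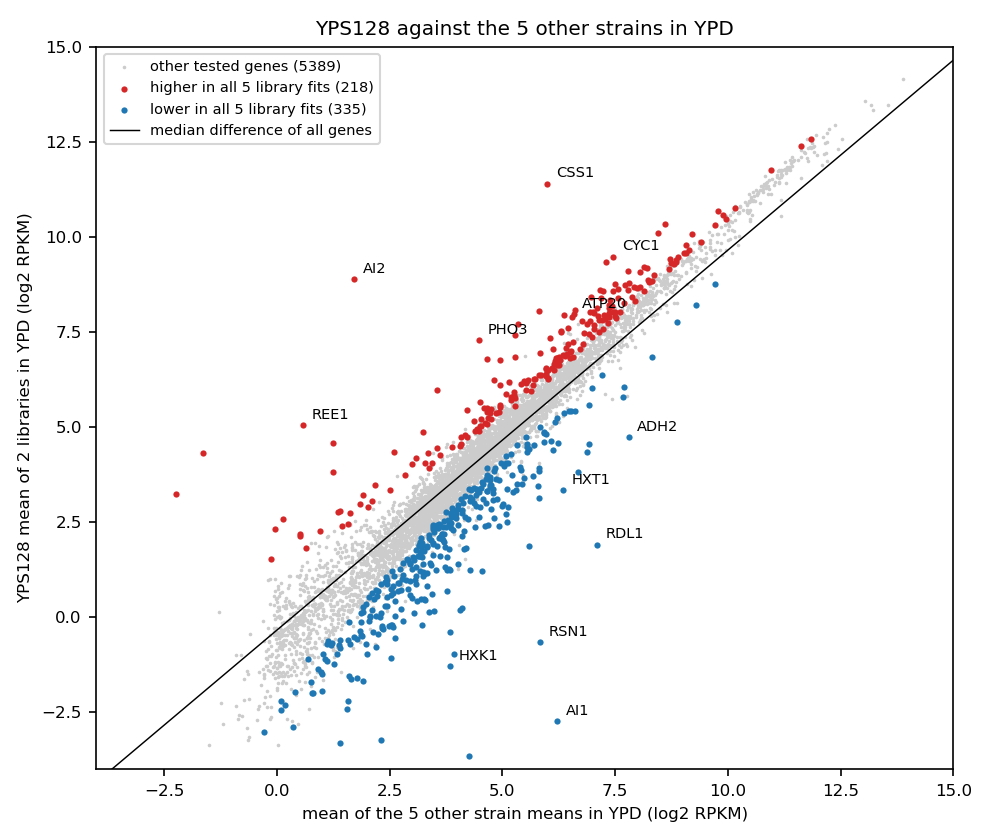
Level of each of the 5942 features in YPS128 (y axis, mean of 2 libraries, log2 RPKM) against the mean of the 5 other strain means (x axis, log2 RPKM) in YPD. Red points are the 218 features higher and blue points the 335 lower in all 5 library fits, and the line is offset by the median difference of -0.35. RSN1 and CSS1 stand far from the line among nuclear genes.

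Respiratory chain and ATP synthase genes were higher in YPS128 almost as a group. Of 35 members tested, 33 were higher and 2 lower in the library fit, and 29 were higher and 0 lower in all 5 fits, where 3.67% of all features were. The median relative difference of the list was 1.20 against 0 for all features, and it was 0.84 after median scaling without NCYC361. YPS128 had the highest mean of the 6 strains for 33 of the 35 members after median scaling, against 21.6% of all features. Leaving out any 1 of the other strains gave a list median between 0.84, without NCYC361, and 1.30, without UWO.S05.22-7.

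Members of several complexes are given here. QCR10, a subunit of the cytochrome bc1 complex, was at 231 and 313 RPKM in YPS128 and at 45.3 to 196 in the other 10 libraries, with a median of 105. Its relative difference was 1.80 ± 0.13 (adjusted p = 2.03e-06). RIP1, the Rieske iron-sulfur protein of the same complex, was at 366 and 397 RPKM against 24.99 to 279, median 207. In both genes the YPS128 libraries were above all others, and the lowest 2 were those of NCYC361.

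ATP20, subunit g of the ATP synthase, was at 244 and 257 RPKM in YPS128 and at 52.5 to 127 elsewhere, median 109 (relative difference 1.73 ± 0.09, adjusted p = 2.66e-07). NDE1, the external NADH dehydrogenase that feeds electrons to the chain, was at 531 and 563 RPKM against 95.4 to 489, median 257. COX6, a subunit of cytochrome c oxidase, was at 305 and 379 RPKM against 37.5 to 305, so that the lower YPS128 library touched the highest of the others. CYC1, the main cytochrome c, was at 610 and 840 RPKM against 2.73 to 750, median 385, and its groups overlapped.

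The 2 members that were lower in the library fit are the hypoxic isoforms COX5B and CYC7, which replace COX5A and CYC1 when oxygen is scarce. Of 7 genes tested that the mitochondrial genome itself encodes, 4 were higher and 1 lower in the library fit. Of all features 8.2% were higher and 39.9% lower there. COX3 alone was higher in all 5 fits. COX3, a core subunit of cytochrome c oxidase, was at 1062 and 1150 RPKM in YPS128 and at 155 to 657 in the others, median 507, with no overlap (relative difference 2.0 ± 0.11, adjusted p = 2.79e-07). COX1, COX2 and ATP6 had relative differences of 0.69, 0.78 and 0.80, and their levels overlapped those of the other strains. ATP8, a subunit of the ATP synthase, was the lower member, at 0.683 and 2.398 RPKM against 0.815 to 27.2, with overlap. COB did not pass. Its relative difference was 0.64 ± 0.16, and the adjusted p of 0.153 is for the difference before the all-gene median is taken off.

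Promoters of the respiratory members with the smallest adjusted p that hold a CCAAT match are shown to place the HAP motif beside these values. The sequences are the 250 bases before the start codon in the S288C reference of RefSeq, build R64, and not the alleles of the isolates. Capitals mark CCAAT or its reverse complement ATTGG.
ATP20, chrXVI:599620-599869, plus strand: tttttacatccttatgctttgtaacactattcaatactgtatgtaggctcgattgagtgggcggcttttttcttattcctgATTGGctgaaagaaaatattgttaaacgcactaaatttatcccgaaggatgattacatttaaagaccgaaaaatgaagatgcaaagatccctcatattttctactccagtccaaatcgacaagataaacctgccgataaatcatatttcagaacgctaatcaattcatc
NDE1, chrXIII:556476-556725, minus strand: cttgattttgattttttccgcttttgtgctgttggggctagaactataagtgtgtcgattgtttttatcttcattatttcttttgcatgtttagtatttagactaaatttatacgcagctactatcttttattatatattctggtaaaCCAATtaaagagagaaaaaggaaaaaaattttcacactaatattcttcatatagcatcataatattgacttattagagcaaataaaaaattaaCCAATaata

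CCAAT on either strand was found in the 250 bases of 29 of 35 respiratory promoters (82.9%) and in 2126 of 6007 promoters of protein-coding genes (35.4%). A match is a description of the reference sequence and not a bound site. The respiratory list was drawn up from general knowledge and holds genes of the kind that the HAP complex activates. An excess of CCAAT is therefore a trait of the list, and this share says nothing about YPS128.

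Around the chain, the genes of the tricarboxylic acid cycle were higher for 8 of 21 and lower for 4 in the library fit, where 8.2% and 39.9% of all features were, and 6 and 1 in all 5 fits. After median scaling 14 were higher and 2 lower, where 1516 and 761 of the 5942 features were. The median relative difference was 0.46. The succinate dehydrogenase subunits SDH1, SDH2 and SDH3 had relative differences of 1.12, 1.06 and 1.57. ACO1, the aconitase of the cycle, was at 443 and 457 RPKM against 222 to 387 elsewhere. CIT3, a minor citrate synthase, was lower at 0.275 and 0.121 RPKM against 0.457 to 4.32.

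Mitochondrial ribosomal proteins were higher in 30 of 64 members and lower in 0, where 8.2% and 39.9% of all features were. In all 5 fits 15 were higher, where 3.67% of all features were. Their median relative difference was 0.66, and 0.49 after median scaling without NCYC361. Y7568 lay close to YPS128 for this list, at a median level of 0.57 above the mean of the 6 strains against 0.62 in YPS128. Cytosolic ribosomal proteins of the small subunit were higher in 47 of 56 members, but in 5 of 56 under all 5 fits, against the same shares. YPS128 had the highest median-scaled mean for all 56, against 21.6% of all features. Their median relative difference of 0.85 became 0.36 after median scaling without NCYC361, whose own list median lay 2.01 below the mean of the 6 strains.

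**Figure D2:**
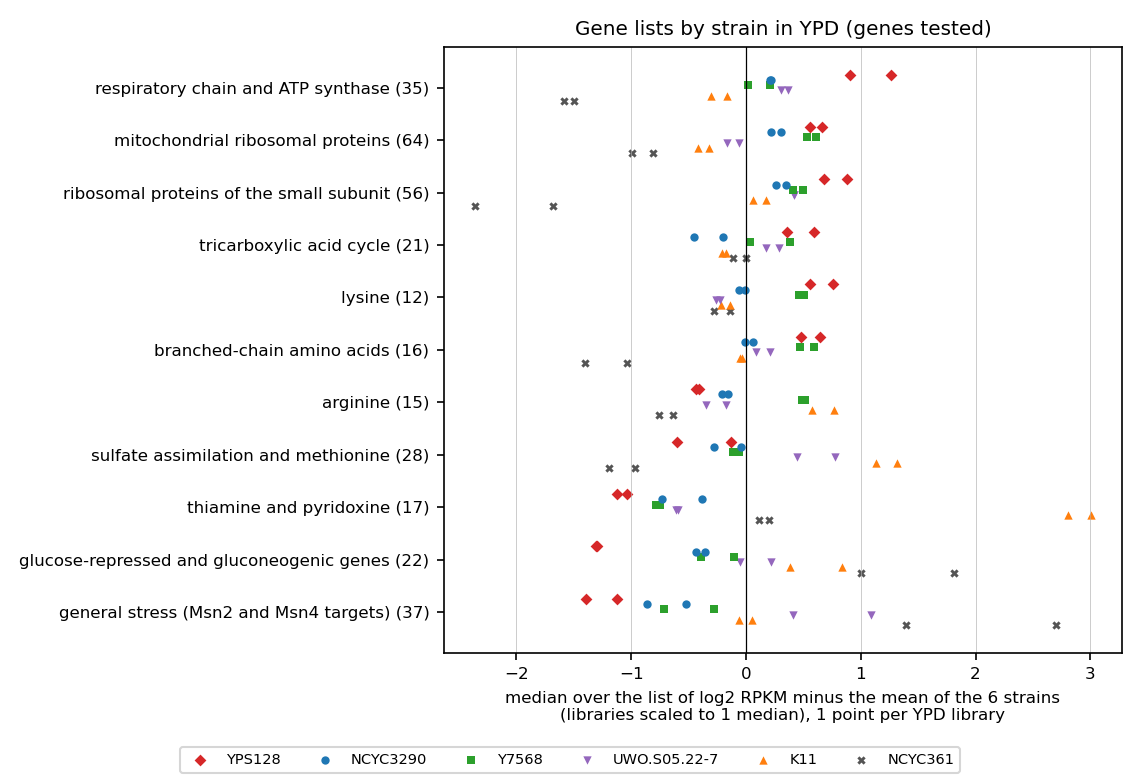
Median over the tested members of each gene list of log2 RPKM minus the mean of the 6 strains (x axis, log2, libraries scaled to 1 median), with 1 point per YPD library and the strain by colour and shape. Both YPS128 libraries are the highest for the respiratory chain and the lowest for the glucose-repressed and general stress lists, and NCYC361 lies at the opposite end of each.

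The protective and storage genes driven by Msn2 and Msn4 were lower in YPS128. Of 37 tested, 34 were lower and 0 higher in the library fit, where 39.9% of all features were lower, and 17 were lower in all 5 fits, where 5.64% were. The median relative difference was -1.50, and -1.22 after median scaling without NCYC361. YPS128 had the lowest median-scaled mean of the 6 strains for 19 of the 37, against 10.4% of all features. The NCYC361 libraries were the highest for this list, with a list median 1.79 above the mean of the 6 strains, and that of YPS128 was 1.18 below it.

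UBI4, the polyubiquitin gene, was at 11.7 and 10.9 RPKM in YPS128 and at 14.9 to 549 elsewhere, median 21.2 (relative difference -1.49 ± 0.14, adjusted p = 6.57e-07). RTN2, a reticulon-like protein, was at 1.19 and 1.04 RPKM against 4.50 to 135, median 7.08. TFS1, an inhibitor of carboxypeptidase Y, was at 8.36 and 6.68 RPKM against 8.89 to 341, median 14.3. None of these 3 overlapped on the deposited scale.

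Storage carbohydrate genes were among them. GSY2, the main glycogen synthase, was at 1.28 and 2.0 RPKM against 4.92 to 66.2, median 12.8. GLK1, glucokinase, was at 2.87 and 4.69 RPKM against 7.27 to 884, median 45.3. HXK1, hexokinase 1, which glucose represses, was at 0.344 and 0.484 RPKM, from 4 and 3 reads, and the other 10 libraries ran from 0.435 to 554, with the low end in K11. HSP104, the protein disaggregase, was at 13.4 and 12.7 RPKM against 27.1 to 241.

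For the stress list the same view is given of AGGGG and its reverse complement CCCCT, in the 2 members with the smallest adjusted p that hold a match. UBI4 and HXK1 rank before them and have no match in this window.
RTN2, chrIV:94355-94604, plus strand: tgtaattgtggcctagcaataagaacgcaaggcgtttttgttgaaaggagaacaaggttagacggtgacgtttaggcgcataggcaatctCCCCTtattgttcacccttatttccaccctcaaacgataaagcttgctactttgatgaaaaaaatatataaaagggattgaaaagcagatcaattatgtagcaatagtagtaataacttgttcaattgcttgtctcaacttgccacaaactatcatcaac
TFS1, chrXII:513822-514071, minus strand: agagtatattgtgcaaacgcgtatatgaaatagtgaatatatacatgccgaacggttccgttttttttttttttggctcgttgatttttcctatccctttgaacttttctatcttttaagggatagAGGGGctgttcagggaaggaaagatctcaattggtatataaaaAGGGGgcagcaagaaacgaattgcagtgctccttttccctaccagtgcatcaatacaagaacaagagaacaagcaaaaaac

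AGGGG on either strand was found in 26 of 37 stress promoters (70.3%) and in 1128 of 6007 promoters (18.8%). It was also found in 14 of 35 respiratory promoters. The stress list was drawn up from general knowledge as Msn2 and Msn4 targets, so an excess of AGGGG follows from its making. The share says nothing about YPS128.

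Glucose-repressed and gluconeogenic genes were lower in 18 of 22 members and higher in 0, where 39.9% of all features were lower. In all 5 fits 8 were lower, where 5.64% of all features were, and the median relative difference was -1.63. ADH2, the alcohol dehydrogenase that consumes ethanol, was at 27.2 and 25.8 RPKM in YPS128 against a median of 632 in the others, whose lowest library had 20.6. ADR1, the activator of ADH2, was at 1.26 and 0.932 RPKM against 1.34 to 82.6. ICL1, isocitrate lyase of the glyoxylate cycle, was at 2.70 and 2.11 RPKM against 3.29 to 20.9. SUC2, invertase, stayed within the range of the others at 29.4 and 28.9 RPKM.

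Hexose transporters moved both ways. HXT1, a low-affinity transporter induced by high glucose, was at 10.02 and 10.29 RPKM against 23.6 to 297, median 93.5 (relative difference -2.66 ± 0.15, adjusted p = 1.19e-08). HXT3, another low-affinity transporter, was at 463 and 402 RPKM against 515 to 1646. HXT2, a high-affinity transporter, was higher at 1174 and 990.2 RPKM against 491 to 931. HXT7 was at 23.0 and 24.6 RPKM against 0.226 to 54.3, but it is nearly identical to HXT6, which was at 0.293 and 0.412 RPKM, and how reads were split between the 2 is not known here. Glycolytic genes were lower for 6 of 22 and higher for 0, below the 39.9% of all features that were lower. Their median relative difference was 0.21. After median scaling 10 were higher and 5 lower, where 1516 and 761 of the 5942 features were. TDH1, the minor glyceraldehyde-3-phosphate dehydrogenase, was at 0.904 and 1.41 RPKM against 1.80 to 368, whereas TDH3, the main form, did not pass at 17255 and 19055 RPKM against 8931 to 21086.

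Counts for the amino acid pathways are to be read against 8.2% of all features higher and 39.9% lower in the library fit. In all 5 fits the shares were 3.67% and 5.64%. Lysine genes were higher for 7 of 12 members, all 7 of them in all 5 fits, and lower for 2 in the library fit. LYS20, the homocitrate synthase that opens the pathway, was at 245 and 235 RPKM against 35.2 to 227, median 96.8 (relative difference 1.72 ± 0.10, adjusted p = 4.33e-07), and it has a near-identical copy, LYS21. LYS9, saccharopine dehydrogenase, was at 192 and 198 RPKM against 63.6 to 133. LYS4, homoaconitase, was at 142 and 126 RPKM against 13.9 to 118. YPS128 was above every other library for these 3. For the lysine list Y7568 came next, at 0.49 above the mean of the 6 strains against 0.65 in YPS128.

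Branched-chain genes were higher for 8 of 16 and lower for 4, with LEU9, BAT1, LEU4, LEU1 and LEU2 higher in all 5 fits and levels of all 5 that overlapped those of the other strains. Y7568 was near YPS128 for this list, at 0.53 above the mean of the 6 strains against 0.56. The list median was 0.58 with all strains and 0.25 without NCYC361, the lowest strain. Arginine genes were lower for 11 of 15 and higher for 0, 7 of them in all 5 fits. CPA1, a subunit of the arginine-specific carbamoyl phosphate synthetase, was at 65.9 and 66.5 RPKM against 72.8 to 737. ARG4, argininosuccinate lyase, was at 10.093 and 10.005 RPKM against 11.5 to 66.3. The list median was -0.29 without K11, the highest strain for this list, -0.60 without NCYC361, the lowest strain, and -0.50 with all. Relative to the mean of the 6 strains the list lay at -0.81 in NCYC361, -0.35 in YPS128 and -0.31 in UWO.S05.22-7. YPS128 had the lowest median-scaled mean for 2 of the 15 members, against 10.4% of all features. Sulfate and methionine genes were lower for 19 of 28 and higher for 2, 9 of them lower in all 5 fits. MET17, which makes homocysteine from sulfide, was at 19.4 and 28.3 RPKM against 37.2 to 525, median 106. MET3, ATP sulfurylase, was at 2.68 and 3.33 RPKM against 6.03 to 59.5. For the methionine list too K11 was the highest strain, and the list median was -0.18 without K11, -0.75 without NCYC361, the lowest strain, and -0.37 with all.

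Thiamine and pyridoxine genes were lower for 14 of 17 members, 9 of them in all 5 fits, and higher for 1. Of all features 39.9% were lower in the library fit and 5.64% in all 5 fits. THI20, a pyrimidine kinase of thiamine synthesis, was at 6.91 and 6.28 RPKM against 9.34 to 414, median 16.9. THI6, thiamine phosphate synthase, was at 12.4 and 10.4 RPKM against 12.8 to 214. THI73, a membrane transporter gene regulated with this pathway, was at 0.830 and 1.68 RPKM against 2.26 to 845. K11 held the highest values of this list, with a list median 2.91 above the mean of the 6 strains, and without K11 the median relative difference of YPS128 went from -1.32 to -0.59. PHO3, an acid phosphatase that frees thiamine outside the cell, went the other way at 169 and 142 RPKM in YPS128 against 1.81 to 102, median 30.7 (relative difference 3.14 ± 0.19, adjusted p = 2.88e-07).

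The 12 largest relative differences per direction were taken among nonoverlapping genes called in all 5 fits with a mean of at least 10 RPKM in the higher group. They were chosen after the values were seen. CSS1 (YIL169C, a gene near the end of chromosome IX) was the most abundant of them, at 2731 and 2684 RPKM in YPS128 against 8.21 to 146, median 93.6. Its relative difference was 5.75 ± 0.10 (adjusted p = 1.14e-13), yet its unadjusted p with strains as the unit was 0.006, which did not pass the adjustment (adjusted p = 0.921), and NCYC3290 alone among the others was near 8 RPKM. FRE4, a ferric reductase, was at 121 and 101 RPKM against 6.26 to 67.2. YOL014W, of unknown function, was at 243 and 253 RPKM against 30.2 to 153.

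On the low side RDL1, a thiosulfate sulfurtransferase on chromosome XV, followed RSN1. It was at 3.345 and 4.197 RPKM in YPS128 against 10.6 to 657, median 144 (relative difference -4.86 ± 0.12, adjusted p = 1.59e-12). UWO.S05.22-7 was low too, at 14.01 and 10.63 RPKM, and in SynH it lay below YPS128, at 17.57 and 20.03 against 28.3 and 24.1. DAL1, allantoinase of purine breakdown, was at 0.726 and 0.637 RPKM against 1.21 to 38.8. HBN1, of the nitroreductase family, was at 2.59 and 2.12 RPKM against 3.37 to 665. TMA10, a ribosome-associated protein, had 0 reads in both YPS128 libraries, which allows up to 3 reads each, and 1 to 1755 reads in the others. ATG34 had 1 read in each YPS128 library, against 2 to 531 in the others, and FRM2 had 1 and 0, against 0 to 393. The reads of FRM2 thus overlapped. Its RPKM values, 0.345 and 0.303 against 0.382 or more, lay apart only because 1 read is added and scaled by library size. No fold is given for these 3. The other members of the low group were THI73, GLK1, RTN2, TDH1 and GSY2 above, and those of the high group were PHO3, COX3, QCR10, ATP20, LYS20, RIP1, NDE1 and the mitochondrial frame BI2.

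**Figure D3:**
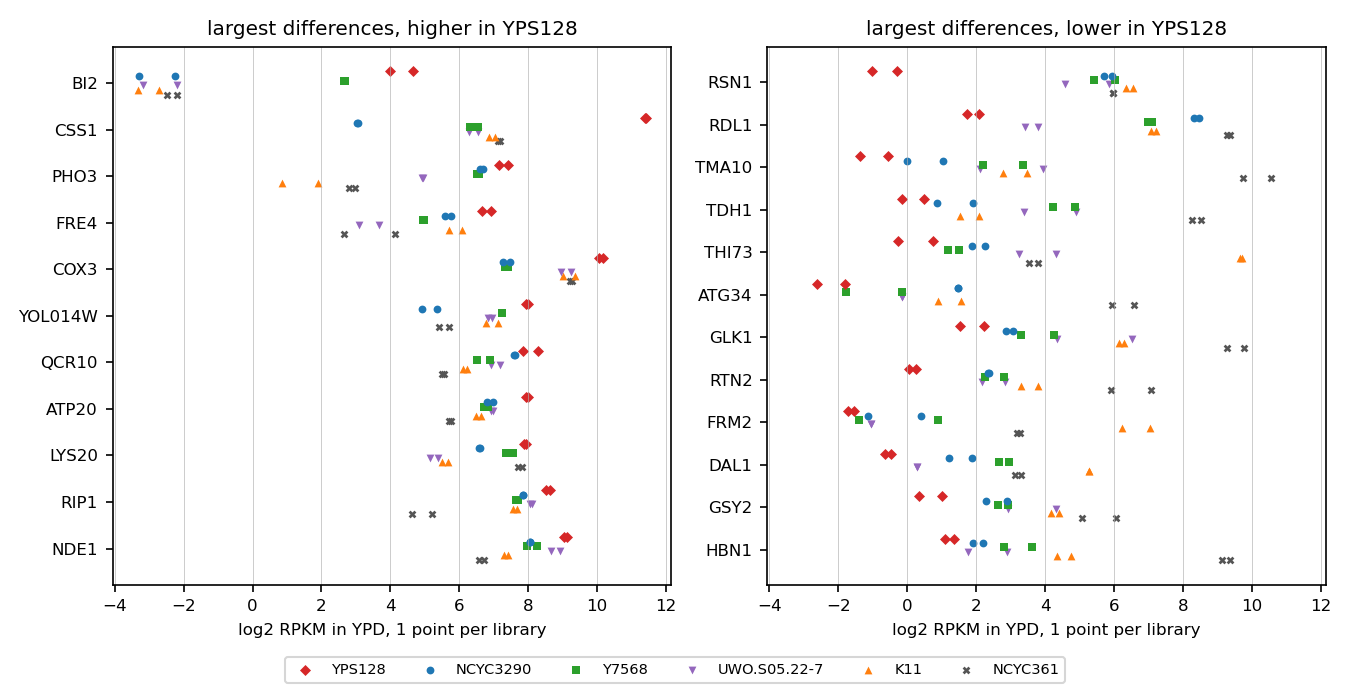
Log2 RPKM in YPD (x axis) of genes with the largest relative difference on each side, 11 of the 12 higher and all 12 lower, with 1 point per library, and the strain by colour and shape. Only genes with a mean of at least 10 RPKM in the higher group were eligible. The YPS128 points lie outside all other points in every row, which the choice of genes required, and on the low side the NCYC361 points are often the highest. For FRM2 this holds for RPKM and not for reads.

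Genes named for their known variation between wild strains gave mixed values. AQY2, an aquaporin that many strains carry in a broken form, was at 186 and 156 RPKM in YPS128 and at 9.34 to 258 in the others, with K11 the highest, and it overlaps YLL053C. AQY1, the aquaporin of spores, was at 0.656 and 0.192 RPKM, from 5 and 0 reads, against 0.485 to 19.9. FLO11, the flocculin of adhesion and filamentous growth, was at 1.32 and 0.558 RPKM against 0.292 to 166, with NCYC361 the highest. STE2, the receptor for alpha factor, was at 1.32 and 1.36 RPKM against 2.38 to 23.8. NCYC361 and K11 were at 15.7 to 23.8, and NCYC3290, Y7568 and UWO.S05.22-7 at 2.38 to 3.51. It was lower in all 5 fits, as were STE4 and STE6. Of the 18 mating genes tested, 3 were lower in all 5 fits, where 5.64% of all features were. In the library fit 9 were lower and 0 higher, where 39.9% and 8.2% of all features were. HAP1, the heme-responsive activator, was at 29.5 and 20.5 RPKM against 23.5 to 106, and it and PDR5, ENA1 and SUC2 were not called in all 5 fits. PDR5, the main drug efflux pump, was at 429 and 425 RPKM against 274 to 504. ENA1, a sodium pump with near-identical neighbours, was at 1.04 and 0.592 RPKM against 0.0786 to 60.8. CUP1-1, metallothionein, had 0 reads in all 12 libraries, and it has near-identical copies. HO and STE3 were below the limit of 1 RPKM, with at most 1 read in YPS128.

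The mitochondrial intron frames split the strains by presence of reads. AI1 to AI4 and AI5_BETA are frames in introns of COX1, BI2 and BI4 in introns of COB, and SCEI in the intron of the large ribosomal RNA gene, and they code for maturases or homing endonucleases that move the introns. YPS128 had 10788 and 7749 reads in AI2, and NCYC361 and Y7568 had 3440 to 8943, while K11, NCYC3290 and UWO.S05.22-7 had at most 2. In AI1 YPS128 had 3 and 1 reads and UWO.S05.22-7 had 0 and 1, where the other 4 strains had 3374 to 7828. In AI4 both these strains had 0 reads, against 318 to 1313 in the other 4.

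AI5_BETA had 77 and 73 reads in YPS128 and at most 2 in every other library. BI2 had 201 and 182 reads in YPS128 and 67 and 35 in Y7568, and 0 in the other 4 strains. In SCEI only NCYC361 and Y7568 had reads, from 261 to 575. BI4 was read in all 6 strains, with 668 and 356 in YPS128 against 107 to 426. With the annotation used these frames overlap COX1, COB and each other, and how overlapping reads were assigned is not given in the sources used here.

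**Figure D4:**
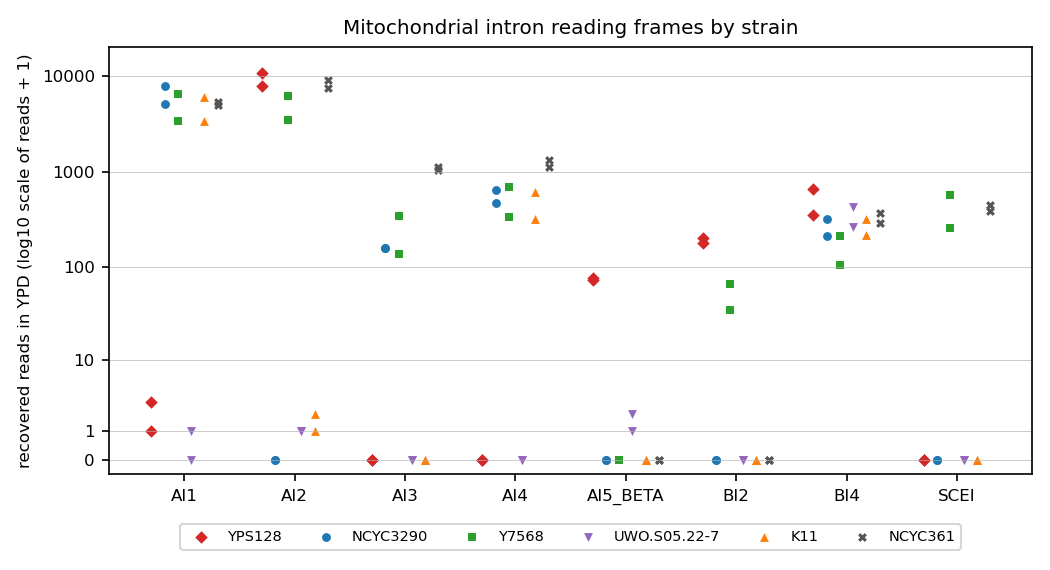
Recovered reads (y axis, log10 scale of reads + 1) in 8 mitochondrial intron reading frames in YPD, with 1 point per library and the strain by colour and shape. YPS128 has 10788 and 7749 reads in AI2, almost none in AI1, AI3 and AI4, and is alone with over 2 reads in AI5_BETA.

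By position, genes within 30 kb of a chromosome end differed more often. Of 264 tested there, 9.47% were higher and 14.4% lower in all 5 fits, against 3.36% and 5.40% of the 5299 farther in. The relative difference exceeded 1 in size for 37.1% of the genes near the ends and for 9.28% of the others. Chromosome medians stayed between -0.11 and 0.05 for the 16 nuclear chromosomes. In 7 places at least 3 neighbouring genes were called the same way, such as KTD1, DFP2 and PRM9 on chromosome I, which were higher, and MAL33, MAL31 and PAU24 on chromosome II, MET2, BOR1 and GOR1 on chromosome XIV, and GIT1, YCR099C, EMA35 and YCR101C on chromosome III, which were lower.

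The other media, which share the strains but no library with YPD, mostly showed differences of the same sign. Of the 218 genes higher in YPD, 207 (94.95%) had a positive relative difference in SynH -HTs and 206 (94.5%) in SynH, where 50% of all features did. Of the 335 lower ones, 290 (86.6%) and 281 (83.9%) were negative. The median relative difference of the higher genes went from 1.02 in YPD to 0.62 in SynH -HTs and 0.74 in SynH, and that of the lower genes from -1.39 to -0.57 and -0.61. The genes were chosen on the YPD values, so the sizes are not compared between media. Relative differences in each medium are taken from that medium's own all-gene median.

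Fewer features were called there with libraries as the unit. SynH -HTs gave 35 higher (0.589%) and 66 lower (1.11%), and SynH gave 177 higher (2.98%) and 231 lower (3.89%). In SynH -HTs same-numbered replicates deviated together, and with the replicate number as a block the counts were 207 and 682. Of the genes higher in YPD, 25 were called higher in SynH -HTs and 93 in SynH. Of those lower in YPD, 47 and 121 were called lower. With the block in SynH -HTs the counts there were 99 and 190. In the opposite direction, without the block, there were 0 and 1 of the higher genes in SynH -HTs and SynH, and 1 and 13 of the lower genes. With the block, 1 of the higher and 3 of the lower genes were called in the opposite direction in SynH -HTs.

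Nuclear genes called the same way in all 3 media numbered 18 higher and 36 lower without the block, and 65 and 87 with it in SynH -HTs. The genes named here are from the count without the block. Among the higher were CSS1, REE1, ENB1, HXT7, CHA1, LYS20, COS6, COS7, COS12, PRM9 and KTD1. REE1, which takes part in the control of enolase, was at 30.6 and 35.7 RPKM in YPS128 and at 0.201 to 72.7 in the others in YPD, and K11 was the only other strain near it. Among the lower were RSN1, RDL1, OPT2, ADH2, VHT1, THI4, TIR1, ARG3 and CPA1. Of the genes just named, CSS1, LYS20, PRM9, RSN1, RDL1, VHT1 and CPA1 did not overlap the other strains in YPD, and the rest did. THI4, of thiamine synthesis, was at 1.02 and 0.719 RPKM in YPS128 against a median of 1.14 in the others, with K11 at 3693 and 2849, and TIR1, a cell wall mannoprotein, was at 3.28 and 1.61 against 2.36 to 799.9. OPT2, an oligopeptide transporter near the end of chromosome XVI, had 1 read in each YPS128 library in YPD. It had at most 5 in the other media, the 5 in the SynH library of 32828574 reads. The other strains ran from 0 to 642 reads in YPD and from 0 to 982 in SynH. UWO.S05.22-7 was as low, with 3 and 0 reads in YPD and 2 and 0 in SynH. VHT1, the biotin transporter, was at 12.4 and 16.5 RPKM against 24.3 to 187 and did not overlap.

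The respiratory list kept a positive median in both media, at 0.61 in SynH -HTs and 0.81 in SynH, and the stress list had a smaller negative median of -0.28 in SynH -HTs and a positive one of 0.49 in SynH. The lysine median was 0.11 and 0.18 there. With strains as the unit, the difference in YPD minus the mean of the differences in the other 2 media passed for 0 genes in either direction, and at an unadjusted p under 0.05 for 1 higher and 24 lower. With libraries as the unit and under both scalings, 13 features were higher (0.219%) and 88 lower (1.48%) in YPD than in the other media, and 17 of the 37 stress genes were among those 88. HXK1 had relative differences of -4.79 in YPD, 0.83 in SynH -HTs and 3.45 in SynH. GPH1, glycogen phosphorylase, had -2.35, -0.06 and 2.53, and RTC3 had -2.49, 1.24 and 1.49. FET4, a low-affinity iron transporter, was on the other side with -0.23, -2.48 and -4.34. These genes were chosen after their values were seen.

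**Figure D5:**
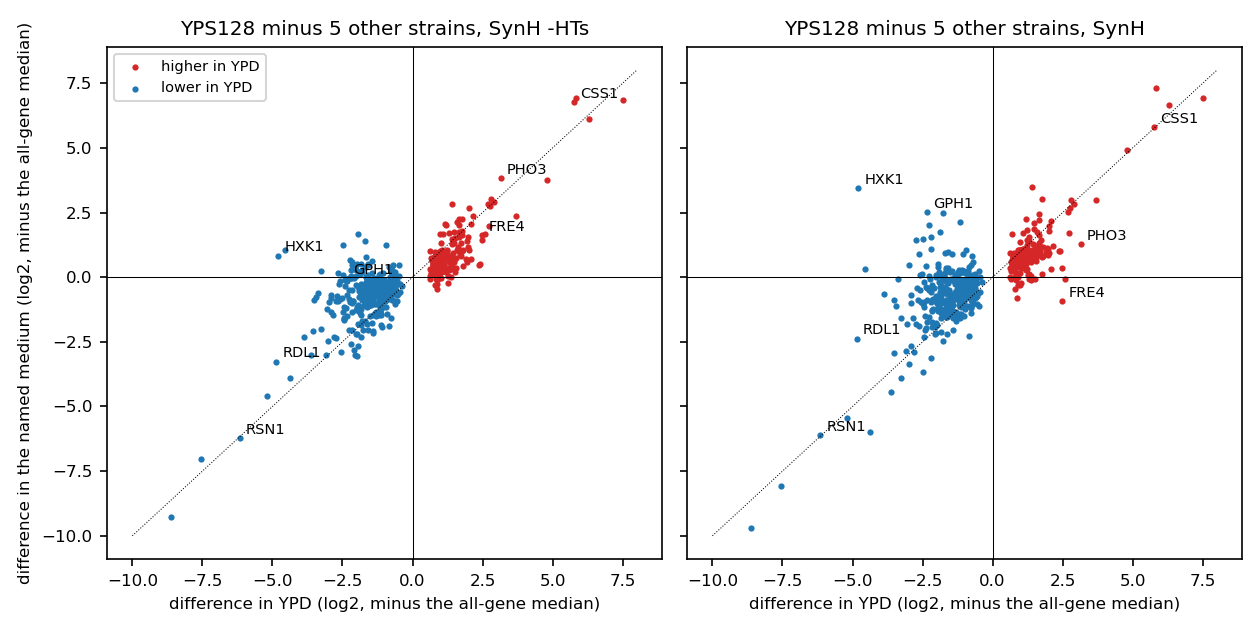
Relative difference between YPS128 and the 5 other strains in SynH -HTs (left) and SynH (right) on the y axis against that in YPD on the x axis (log2), for the 553 genes called in all 5 YPD fits. Genes higher in YPD are mostly above 0 in both media, and HXK1 and GPH1 are lower in YPD with values near or above 0 elsewhere.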

How the data were processed

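The deposited table holds log2 RPKM values made by the authors, and per the submitters' processing notes reads were processed with Trimmomatic 0.30, Bowtie2 and HTSeq 0.6.0. Which build, annotation and strand setting the authors used is not given in the sources used here. From the values, 1 read was added before the log2, and 99.86% of values in rows matched to R64 gave whole reads (within 0.05 reads or 1e-05 of the value). Folds between few reads and many are understated by this. Where all libraries have few reads, the value follows library depth instead. The value of 0 reads over 1 kb was -3.32 and -2.50 log2 RPKM in YPS128 and -3.06 to -1.84 in the other YPD libraries. CUP1-1, with 0 reads in all 12, was thus at 0.540 and 0.948 RPKM in YPS128 and at 0.644 to 1.51 elsewhere. Of 6723 rows, 6 name no gene and were left out. limma 3.58.1 in R 4.3.3 with an intensity trend was run on the deposited log2 values and tested on simulated data, with Benjamini-Hochberg adjustment over 5942 features and a threshold of 0.05. The main test compared the YPS128 mean with 5 strain means, and the second used 12 libraries. The labels call the replicates biological. Count models planned for raw counts were not run, since the values are log2 RPKM, and limma voom on recovered reads was added. The named-gene rule took up to 12 rises and 12 falls past the main threshold, outside the range of the other 10 libraries and reaching 10 RPKM, the 4 smallest adjusted p of each list described, up to 5 medium-dependent genes per direction, and AQY1, AQY2, ENA1, CUP1-1, HO, STE2, STE3, HAP1, FLO11, SUC2 and PDR5. Other genes were named after their values were seen, and 1 gene that the rule takes is not reported here. The genes, lists and comparison were chosen with earlier results of these data known. Copies are coding sequences at 95% identity over 50% of the length (blastn 2.17.0). In SynH -HTs all 15 correlations of replicate differences between strains were over 0.1 (0.42 to 0.72), so numbers pair the samples there by that check.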

Additional observations from a re-analysis of the deposited data

Results flagged for a closer look

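Among the 5 other strains, 1 strain mean lay far from the rest in YPD for 5 of 24 genes tested. For genes not chosen by their values the rule gives about 1 in 20. These 24 were chosen for a large difference between YPS128 and the others in the same YPD values. An extreme strain on the side away from YPS128 enlarges that difference, so the rate does not apply and the count is a description. BI2 was high in Y7568 at a mean log2 RPKM of 2.67 with the next at -2.34, and CSS1 was low in NCYC3290 at 3.05 with the next at 6.42. NCYC361 accounted for the other 3, with RIP1 low at 4.92, TMA10 high at 10.16 and RTN2 high at 6.49.

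For 6 of the 24 genes the difference in YPD departed from the mean difference in the 2 hydrolysate media in limma with libraries as the unit, while with strains as the unit 0 genes passed. The 24 genes were chosen for a large difference in YPD, which favours such departures, so the values are a description and no test of the medium. The log2 departures were -3.16 for GLK1, -3.14 for GSY2, -2.86 for RTN2, -2.25 for HBN1, -2.18 for TDH1 and -2.17 for RDL1. Genes with at most 3 reads in both YPS128 libraries are left out here.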

How the results depend on the processing

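With strains as the unit, the 1 gene lower in YPD became 0 with log2(RPKM + 1), with log2(RPKM + 5), without the intensity trend, with voom on recovered reads (chosen after seeing the data) and without NCYC361, NCYC3290 or Y7568, and became 2, RSN1 and AI1, without UWO.S05.22-7. Leaving out single libraries or replicate numbers gave 0 to 1. The 0 genes higher became 1 with no filter (BDS1) and 1 with 2 against 10 libraries (AI5_BETA). With libraries as the unit there were 487 higher and 2369 lower, and the replicate block gave 506 and 2426. In YPD the numbers share only a name by the criterion that every pair correlates over 0.1: K11, NCYC3290, Y7568 and YPS128 correlated with each other at 0.16 to 0.26, UWO.S05.22-7 with each of these at -0.16 to -0.11, and NCYC361 with all others under 0.1. On the library fit, median scaling gave 1516 higher and 761 lower, quantile normalization 621 lower, leaving out NCYC361 312 and 1198, and, chosen after seeing the data, the same with median scaling 1050 and 516 and with quantile normalization 398 lower. Leaving out 1 library at a time gave 201 to 628 higher and 1116 to 2428 lower, with both low ends without YPS128 replicate 2.

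In SynH -HTs with strains as the unit the 1 lower gene became 0 under median scaling and without NCYC361, and 0 to 1 without either YPS128 library. In SynH the 1 higher gene likewise became 0 under median scaling and without NCYC361, and 0 to 1 without either YPS128 library. With libraries as the unit, added after seeing the data, SynH -HTs had 35 higher and 66 lower (207 and 682 with the replicate block) and SynH 177 and 231 (373 and 772 with the block). The dependence on the medium with libraries as the unit was called for 28 genes higher and 167 lower, and for 40 and 108 after median scaling. The cause of these moves was not tested. The 24 genes with the largest differences kept direction and call in all 691 refits of the library fit, which their choice as called in 5 of these fits partly fixed. Of 318 recounts of list members under other scalings or without NCYC361, 160 stayed within 1.5 times. The planned edgeR and DESeq2 alternatives were not run. Reads per library limit genes near 1 RPKM, where 1 read moves a value.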

Other observations

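Further lists showed smaller or mixed differences in the library fit. Of all features 8.2% were higher and 39.9% lower in that fit, and 3.67% and 5.64% in all 5 fits. After median scaling 1516 of the 5942 features were higher and 761 lower. Proteasome genes were lower for 28 of 33 members on the deposited scale and for 0 after median scaling, with a median relative difference of -0.01. Iron regulon genes were lower for 20 of 33 and higher for 3, but 1 was lower and 2 higher in all 5 fits. NCYC361 was the highest strain for that list, 2.25 above the mean of the 6 strains. Purine synthesis genes were higher for 8 of 18 and lower for 2, and 2 were higher in all 5 fits.

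Among 18 targets of the drug efflux regulators Pdr1 and Pdr3, 14 were lower and 2 higher, where 39.9% of all features were lower. After median scaling 9 were lower, where 761 of the 5942 features were. In all 5 fits 5 were lower, where 5.64% of all features were. QDR2, a multidrug transporter, was at 0.246 and 0.433 RPKM in YPS128 against 0.856 to 13.8 in the other libraries. RSB1, a sphingoid base transporter, had a relative difference of 1.98. Of 9 COS family members tested, 3 were higher and 2 lower in all 5 fits, where 3.67% and 5.64% of all features were. Nitrogen catabolite repressed genes were lower for 20 of 29 and higher for 2. After median scaling 11 were lower and 4 higher, where 761 and 1516 of the 5942 features were. In all 5 fits 6 were lower and 1 higher.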
